A study of Mus musculus with 19 samples.

Results

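Mucosal surfaces are guarded by dimeric IgA, in which a pair of antibody units made by plasma cells is held together by the J chain. The polymeric immunoglobulin receptor, encoded by Pigr, sits on the basolateral side of the epithelium, binds IgA or IgM that carries a J chain, and carries it across the cell into the lumen, where its outer part stays on the antibody as secretory component. In the rodent uterus both the receptor and the amount of IgA in the fluid are known to vary with ovarian hormones. The genes described here were Pigr, Jchain (the J chain), Igha (the constant region of the IgA heavy chain), Ighm (the constant region of the IgM heavy chain), Igkc (the constant region of the kappa light chain) and Mzb1 (an endoplasmic reticulum protein of plasma cells and marginal zone B cells that aids antibody assembly). They were matched by symbol and made up 6 of the 49089 genes counted.

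Endometrium was scraped from the myometrium of wild-type C57Bl/6 females, and RNA-seq was performed on pooled samples. The study's methods give an age of 8 to 14 weeks for the females housed with males and no age for the virgin females. The CONT group (n = 3, replicates 1, 2 and 4) held unmated, virgin females at estrus without treatment. The remaining groups (n = 4 each) held mated females, with Balb/c sires, whose tissue was collected on day 3.5 pc. The study's methods give late evening, on the day proestrus was detected, for the virgin females and noon for mated females. Mating, hormonal stage and hour of collection therefore cannot be told apart in any comparison with CONT. INT females were mated with intact males. For the groups with column prefixes SVX, SVX_VAS and VAS, the prefix and the sample title name different surgeries of the male: the titles give vasectomised for the SVX columns, seminal vesicle-deficient for SVX_VAS and seminal vesicle-deficient/vasectomised for VAS. The column prefixes are used as names here and no surgery is assigned to them. The number of animals behind each pool was not found in the sources used here, so p-values measure the spread between pooled samples. All 12 genes of an epithelial list (such as Epcam, Krt8 and Krt18) and all 8 of a stromal list (such as Vim and Pdgfra) were above the expression filter, as the labelled tissue would hold. All 7 genes of a smooth muscle list were above it too, with a summed level from 287 CPM in a VAS library to 1283 CPM in an INT library.

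Libraries held 12661266 to 31781270 counts in genes. VAS 2 and VAS 3 stood apart from the other 17 libraries: the RNAs Malat1, Gm42418, Gm26917 and CT010467.1 took 0.122% and 0.130% of their counts against 1.75 to 4.02% elsewhere, and 25016 and 25037 genes had a count against 27757 to 29626. VAS results were therefore also computed without these libraries, as stated beside the results concerned. Levels are given as CPM, counts scaled to the size of each library with trimmed mean of M values (TMM) factors, and differences as logFC, the log2 fold change. A gene was called different at a false discovery rate (FDR) of 0.05 or less with a fold change of at least 1.5, in edgeR's quasi-likelihood test over the 17222 genes that reached 3 CPM in 3 or more libraries. Of the 6 genes, 5 passed this filter and Mzb1 did not, as no library held 3 CPM of it. The tissue was sequenced in bulk, so fewer cells of a type and less RNA per cell cannot be told apart.

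The antibody genes and the receptor lay on opposite sides of the estrous level. Jchain, Igha, Igkc and Ighm were each called higher than at estrus in all 4 mated groups. Pigr was called lower in SVX, and its logFC was below 0 but not called in the others. In INT against CONT, 4 of the 5 tested genes were called, all higher, beside 33.6% of all genes tested, of which 20.9% were called higher and 12.7% lower. In SVX against CONT, 5 were called, 4 higher and 1 lower, beside 41.5% of all genes, 23.1% higher and 18.4% lower. In SVX_VAS against CONT, 4 were called, all higher, beside 38.5% in either direction, 22.1% higher and 16.4% lower. In VAS against CONT, 4 were called, all higher, beside 40.4% in either direction, 23.2% higher and 17.2% lower. Groups that did not overlap were common across the genes tested. In INT every library was above every CONT library for 4 of the 5 genes (31% of all genes) and below for 0 (31.3%). In SVX this held for 1 above, Ighm (35.2%), and 1 below, Pigr (35.7%). In SVX_VAS it held for 1 above, again Ighm (33.5%), and 0 below (34%). In VAS it held for 2 above, Jchain and Ighm (26.7%), and 1 below, Pigr (28.3%). Without VAS 2 and VAS 3 it held in VAS for 4 above, Igha and Igkc being added (33.5%), and 1 below (33.6%). In a single test of any difference among the 5 groups, at FDR 0.05 or less, 52.1% of genes passed, as did Ighm (FDR = 0.00682), Igha (FDR = 0.0238), Jchain (FDR = 0.0397) and Igkc (FDR = 0.0429), whereas Pigr had an FDR of 0.119. These comparisons share the 3 CONT libraries, and Jchain, Igha and Igkc vary together across libraries, so the counts are not separate pieces of evidence.

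**Figure D1:**
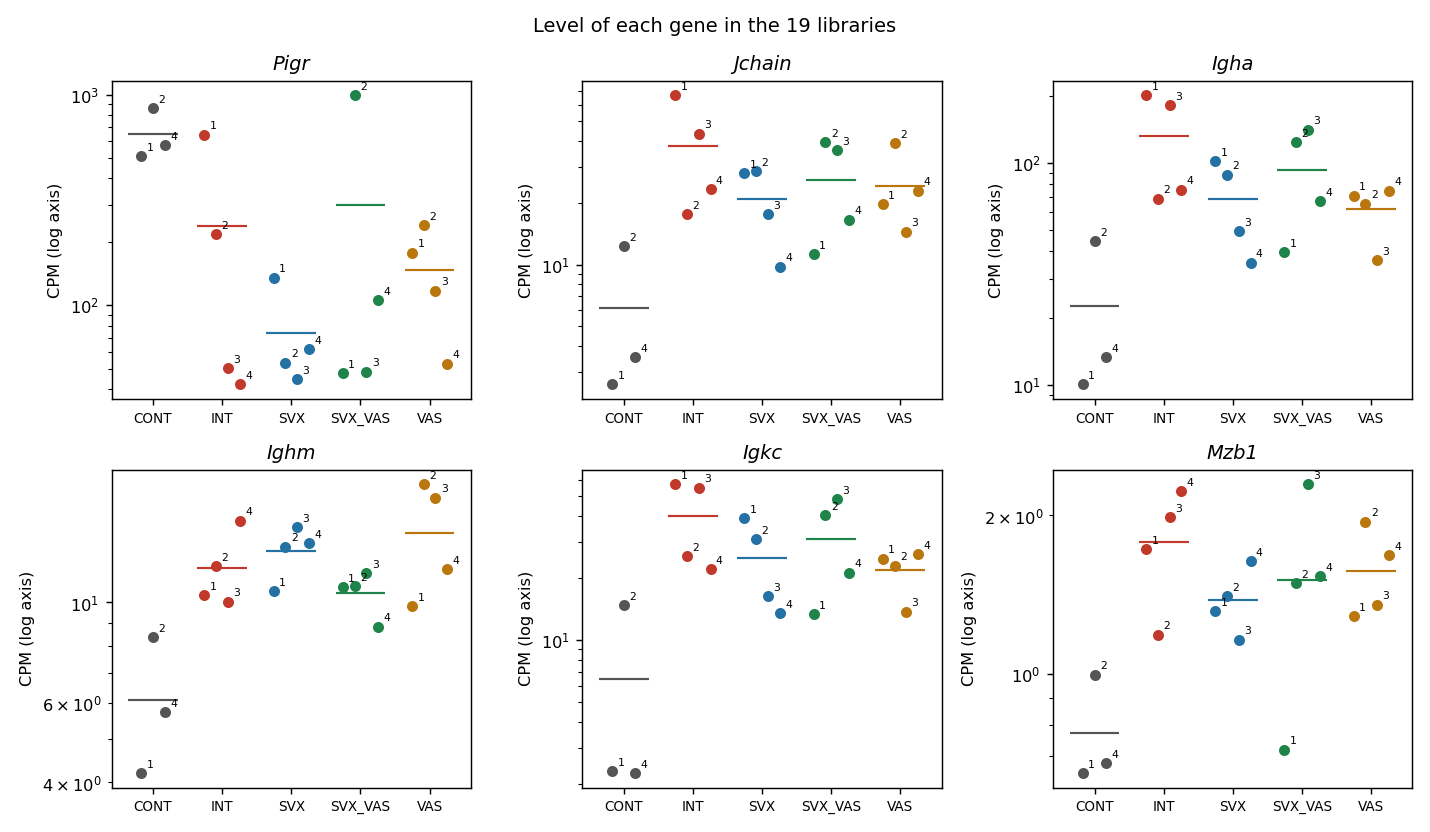
Each panel plots the CPM (log axis) of a gene in all 19 libraries, with groups on the x axis, each point a library labelled by its replicate number and each horizontal line the group mean. Jchain, Igha and Igkc are lowest in CONT 1 and CONT 4, while CONT 2 lies among the lower mated libraries, and Pigr runs from 42.2 to 990 CPM among the mated libraries.

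The receptor was taken first. Pigr (ENSMUSG00000026417.13) lies on the plus strand at chr1:130826684-130852249 of GRCm38. Its level was 512, 865 and 577 CPM in CONT 1, 2 and 4. In INT it was 644, 218, 50.4 and 42.2 CPM in replicates 1 to 4. In SVX it was 135, 53.5, 44.6 and 62.0 CPM, in SVX_VAS 47.7, 990, 48.4 and 106 CPM, and in VAS 177, 240, 117 and 52.9 CPM. The 3 estrous libraries lay close together, whereas SVX_VAS 2 and INT 1 were within or above the estrous range and the other 14 mated libraries were below it.

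Pigr was lower in SVX than in CONT (logFC -3.14, SE 1.06, FDR = 0.0187, edgeR), and the groups did not overlap, as was the case for 35.7% of genes in that direction. The difference was not called in VAS (logFC -2.15, SE 1.03, FDR = 0.0863), although the groups did not overlap there either, beside 28.3% of genes. It was not called in INT (logFC -1.45, SE 1.02, FDR = 0.261), with a 95% interval from -3.61 to 0.71, nor in SVX_VAS (logFC -1.13, SE 1.02, FDR = 0.374), with an interval from -3.28 to 1.03. A two-sided exact permutation test of the log2 CPM gave 0.0571 for SVX and for VAS, the smallest p that 3 against 4 libraries allow. After adjustment over all pairs of groups both were 0.286.

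Single libraries decided these calls. Without INT 1 the logFC of Pigr in INT was -2.65 (FDR = 0.0497), and without SVX_VAS 2 it was -3.27 in SVX_VAS (FDR = 0.00631) and -2.15 in VAS (FDR = 0.0272), both past the threshold. Without SVX 3 the logFC of Pigr in SVX was -2.96 (FDR = 0.0507), just outside it. With only the VAS and CONT libraries in the fit, Pigr was called in VAS (logFC -2.14, FDR = 0.0150). Without both VAS 2 and VAS 3 the logFC of Pigr in VAS was -2.44 (FDR = 0.157).

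The 250 bases upstream of Pigr are shown because they could be searched for an E-box, a type of site that upstream stimulatory factors bind and that has been described in the Pigr promoter. Promoter sequences from RefSeq (GRCm38.p6) were used for 2 of the 6 genes, Pigr and Jchain, and for Ccl28, which encodes the chemokine that draws IgA plasma cells to mucosa. The motifs searched on both strands were CACGTG (E-box), the core of the interferon-stimulated response element (a pair of GAAA runs, with any 2 bases between them), AGGTCA (estrogen response half-site), ATGCAAAT (octamer, found in immunoglobulin promoters) and GGGCGG (GC box). Capitals mark the only match in each sequence.
Pigr, chr1:130826434-130826683, plus strand: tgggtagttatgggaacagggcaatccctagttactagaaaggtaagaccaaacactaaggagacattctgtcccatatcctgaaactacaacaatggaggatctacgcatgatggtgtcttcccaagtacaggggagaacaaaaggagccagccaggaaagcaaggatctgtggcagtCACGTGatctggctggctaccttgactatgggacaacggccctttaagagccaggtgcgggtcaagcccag
Jchain, chr5:88527898-88528147, minus strand: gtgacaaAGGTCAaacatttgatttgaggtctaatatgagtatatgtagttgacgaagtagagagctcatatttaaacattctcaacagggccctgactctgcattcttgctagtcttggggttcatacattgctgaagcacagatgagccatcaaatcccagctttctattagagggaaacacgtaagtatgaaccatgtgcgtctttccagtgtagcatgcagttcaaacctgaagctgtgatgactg
Ccl28, chr13:119623569-119623818, plus strand: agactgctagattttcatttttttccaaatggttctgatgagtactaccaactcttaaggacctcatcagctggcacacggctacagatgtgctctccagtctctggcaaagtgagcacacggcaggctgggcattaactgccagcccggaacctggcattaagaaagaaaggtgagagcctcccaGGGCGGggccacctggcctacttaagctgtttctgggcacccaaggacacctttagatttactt

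In the Pigr sequence the E-box CACGTG spans 71 to 66 bases before the start, and 6.04% of 32536 mouse promoters of the same length hold that motif. In the Jchain sequence AGGTCA spans 243 to 238 bases before the start (14.04% of promoters). In the Ccl28 sequence GGGCGG spans 64 to 59 bases before the start (33.0%). The interferon-stimulated response element core (2.98% of promoters) and ATGCAAAT (1.62%) were in none of these 3 windows.

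Pigr is made by epithelial cells, and most of a list of general epithelial genes, of lumen and glands alike, were called lower in the mated groups than in CONT. Of the 12 epithelial genes, 9 were called lower in INT and 10 in each of SVX, SVX_VAS and VAS, and none was called higher. Without VAS 2 and VAS 3, 5 were called lower in VAS. Their summed level ran from 5291 to 7032 CPM in CONT and from 818 to 3323 CPM across the mated groups. Pigr relative to the median of this list, on the log2 scale, averaged 0.44 ± 0.64 (SD, n = 3) in CONT and 0.01 ± 0.94 (SD, n = 4) in INT, a difference of -0.43 (exact permutation p = 0.514, adjusted over 10 pairs p = 1). The corresponding differences were -0.57 in SVX, -0.38 in SVX_VAS and -0.08 in VAS, all with overlapping groups. Without SVX_VAS 2 the difference in SVX_VAS was -1.11, and without VAS 2 and VAS 3 that in VAS was -0.99. In both cases the libraries that remained (2 in VAS) were below all CONT libraries. The libraries left out held the highest values of this measure in their groups, so this separation follows in part from the choice. Most of a list of uterine gland genes went the other way. The list includes Cxcl15 and Ttr, which the study names among its most increased genes in these data. Its counts therefore describe the list and not the glands as a whole. Of 7 in a glandular list (such as Foxa2, a transcription factor of glands, and Spink1, a protease inhibitor), 5 were called higher in INT (median logFC 5.34), 7 in SVX (6.43), 5 in SVX_VAS (2.50) and 5 in VAS (4.26; 4 genes without VAS 2 and VAS 3), and none lower. What part the amount or kind of epithelium has in the change of Pigr was not tested.

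Some other epithelial products varied closely with Pigr from library to library. The 5 genes with the most similar pattern over the 19 libraries, by Pearson's r of log2 CPM, were Gm45776 (0.98) and Slc16a14, Urah, Trpv6 and Trpv5 (0.97 each), Trpv5 and Trpv6 encoding epithelial calcium channels. Ltf, the estrogen-induced antimicrobial protein lactotransferrin, ranked 11 of 17221 genes (r = 0.96), and Ccl28 ranked 136 (r = 0.93). General epithelial genes followed Pigr less closely: Epcam (r = 0.83), Cdh1 (0.77), Krt8 (0.74) and Krt18 (0.62) ranked 960, 1536, 1853 and 3107. Among the 16 mated libraries alone r was 0.94 for Ltf, 0.89 for Ccl28, 0.74 for Epcam, 0.64 for Cdh1, 0.58 for Krt8 and 0.37 for Krt18. All points share the 19 libraries and their group differences, so these values are descriptive.

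Ccl28 stood at 203, 256 and 237 CPM in CONT 1, 2 and 4. In INT it was 208, 63.3, 11.4 and 18.0 CPM, in SVX 42.6, 8.13, 6.61 and 7.19 CPM, in SVX_VAS 4.99, 95.4, 10.02 and 34.6 CPM, and in VAS 90.7, 89.6, 62.1 and 10.9 CPM. INT 1 alone reached the estrous range. The highest library of INT, SVX and SVX_VAS for Ccl28 (INT 1, SVX 1 and SVX_VAS 2) was also the highest for Pigr, and in VAS the highest pair for both were VAS 1 and VAS 2. Ccl28 was called lower in SVX (logFC -3.85, SE 1.11, FDR = 0.00725) and SVX_VAS (logFC -2.68, SE 1.06, FDR = 0.0421), and not in INT (logFC -1.63, FDR = 0.210) or VAS (logFC -1.87, FDR = 0.133).

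**Figure D2:**
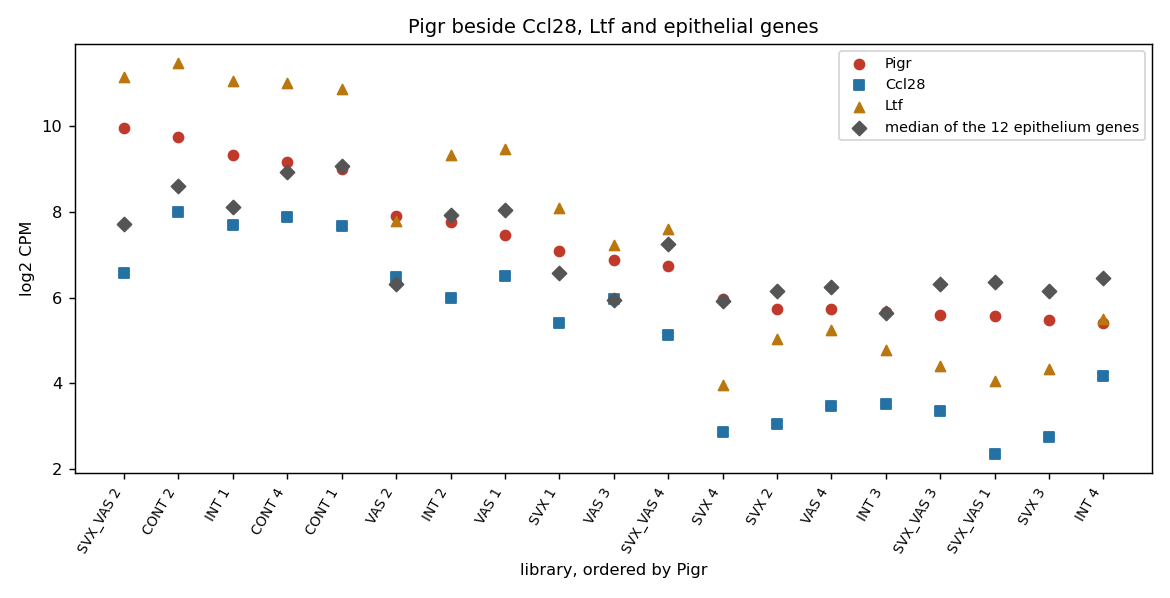
Libraries are ordered on the x axis by Pigr, and the y axis gives log2 CPM of Pigr, Ccl28 and Ltf and the median log2 CPM of the 12 epithelium genes. Ltf has its highest level in CONT 2 (2830 CPM) and its lowest in SVX 4 (15.4 CPM), which are not the ends of the Pigr order. It is broadly lower where Pigr is lower, and the epithelial median covers a narrower range.

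Some genes of the route that Pigr takes through the cell were also called lower. Of 12 tested genes of a transcytosis list, 7 were called lower in INT (beside 12.7% of all genes tested), 7 in SVX (18.4%), 6 in SVX_VAS (16.4%) and 7 in VAS (17.2%). Rab17, a small GTPase of polarised epithelium, had the largest decrease in INT (logFC -2.55, SE 0.57, FDR = 0.00155), with 9.52 to 11.7 CPM in CONT and 0.51 to 3.61 CPM in INT. Rab25 and Rab11a, GTPases of the apical recycling endosome, had logFC of -1.87 (FDR = 0.00205) and -0.76 (FDR = 0.000456) in INT. Rab11fip5, which binds Rab11, was called higher in SVX_VAS (logFC 0.60) and VAS (logFC 0.65), though not in VAS without VAS 2 and VAS 3 (logFC 0.52). The median logFC of the list was -0.84 in INT, whereas that of all tested genes was -0.01.

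Among 17 tested genes linked to the induction of Pigr by cytokines and hormones, 2 were called higher and 5 lower in INT. Relb, a subunit of NF-kappa B (logFC 0.95, FDR = 0.00108), and Tnfrsf1a, a TNF receptor (logFC 0.62, FDR = 0.00124), were higher. Il4ra, the interleukin 4 receptor (logFC -1.16, FDR = 0.0158), Ifngr2 (logFC -1.06, FDR = 0.00835) and Ifngr1 (logFC -0.70, FDR = 0.00124), the chains of the interferon gamma receptor, Irf1, an interferon-induced transcription factor (logFC -0.74, FDR = 0.00129), and Il17ra, the interleukin 17 receptor (logFC -0.70, FDR = 0.0379), were lower. In SVX 2 were higher and 6 lower, in SVX_VAS 3 and 5, and in VAS 2 and 6, or 2 and 3 without VAS 2 and VAS 3.

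Jchain (ENSMUSG00000067149.6, chr5:88519809-88527891, minus strand) encodes the small protein that links IgA dimers and IgM pentamers and gives them affinity for the receptor. It stood at 2.60, 12.3 and 3.54 CPM in CONT 1, 2 and 4. It stood at 66.9, 17.7, 43.5 and 23.3 CPM in INT, at 27.9, 28.6, 17.6 and 9.75 CPM in SVX, at 11.2, 39.6, 36.2 and 16.6 CPM in SVX_VAS, and at 19.8, 39.2, 14.4 and 22.9 CPM in VAS. The groups did not overlap in INT and VAS, while CONT 2 was above SVX 4 and SVX_VAS 1. Jchain rose by a logFC of 2.60 in INT (SE 0.66, FDR = 0.00396), 1.74 in SVX (SE 0.64, FDR = 0.0275), 2.05 in SVX_VAS (SE 0.64, FDR = 0.0132) and 1.95 in VAS (SE 0.64, FDR = 0.0163). The exact permutation p for Jchain was 0.0571 in INT and VAS and 0.114 in SVX and SVX_VAS. Each was 0.286 after adjustment over all pairs of groups.

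Igha (ENSMUSG00000095079.6, chr12:113254830-113260236, minus strand) was the most abundant of the heavy chain genes. It stood at 10.04, 44.3 and 13.3 CPM in CONT and at 201, 69.1, 182 and 75.7 CPM in INT. In SVX it stood at 102, 88.5, 49.2 and 35.5 CPM, in SVX_VAS at 39.5, 124, 141 and 67.2 CPM, and in VAS at 71.2, 65.4, 36.4 and 74.8 CPM. Every INT library was above every CONT library, and in each of the other groups the lowest library was below CONT 2. In VAS that library was VAS 3 alone. Igha rose by a logFC of 2.53 in INT (SE 0.62, FDR = 0.00293), 1.59 in SVX (SE 0.59, FDR = 0.0301), 2.03 in SVX_VAS (SE 0.60, FDR = 0.00950) and 1.44 in VAS (SE 0.59, FDR = 0.0462). The exact permutation p for Igha was 0.0571 in INT and 0.114 in SVX, SVX_VAS and VAS. Each was 0.229 after adjustment over all pairs of groups.

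Igkc (ENSMUSG00000076609.2, chr6:70726435-70726966, plus strand) encodes the constant part of the light chain that most mouse antibodies carry. It stood at 2.30, 14.8 and 2.26 CPM in CONT, at 57.0, 25.5, 54.9 and 22.1 CPM in INT, at 39.1, 30.8, 16.4 and 13.5 CPM in SVX, at 13.3, 40.2, 48.2 and 21.2 CPM in SVX_VAS, and at 24.8, 22.9, 13.7 and 26.1 CPM in VAS. The libraries that were high or low for Igha were high or low for Igkc. Igkc rose by a logFC of 2.59 in INT (SE 0.68, FDR = 0.00479), 1.92 in SVX (SE 0.66, FDR = 0.0202), 2.22 in SVX_VAS (SE 0.67, FDR = 0.0101) and 1.73 in VAS (SE 0.65, FDR = 0.0328). The exact permutation p for Igkc was 0.0571 in INT and 0.114 in SVX, SVX_VAS and VAS, where the groups overlapped. Each was 0.286 after adjustment over all pairs of groups.

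Ighm (ENSMUSG00000076617.9, chr12:113418558-113422730, minus strand) had smaller changes and a narrower spread. It stood at 4.19, 8.38 and 5.73 CPM in CONT, at 10.4, 12.0, 10.03 and 15.2 CPM in INT, at 10.6, 13.3, 14.7 and 13.5 CPM in SVX, at 10.8, 10.9, 11.6 and 8.84 CPM in SVX_VAS, and at 9.80, 18.3, 17.1 and 11.9 CPM in VAS. All 16 mated libraries were above all 3 CONT libraries, the closest being SVX_VAS 4 (8.84 CPM) and CONT 2 (8.38 CPM). Taken group by group, such separation held for 26.7 to 35.2% of all genes tested. The exact permutation p for Ighm was 0.0571 in each mated group, and 0.143 after adjustment over all pairs of groups. Ighm rose by a logFC of 0.96 in INT (SE 0.25, FDR = 0.00463), 1.09 in SVX (SE 0.25, FDR = 0.00143), 0.78 in SVX_VAS (SE 0.25, FDR = 0.0139) and 1.22 in VAS (SE 0.25, FDR = 0.000669). Its highest levels were in VAS 2 and VAS 3, and without them the logFC in VAS was 0.86 (FDR = 0.00880). Without the same libraries Jchain (logFC 1.80, FDR = 0.0453), Igha (logFC 1.72, FDR = 0.0452) and Igkc (logFC 1.97, FDR = 0.0394) were still called in VAS.

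Mzb1 (ENSMUSG00000024353.4, chr18:35647266-35649367, minus strand) had 9 to 42 counts per library. It stood at 0.650, 0.999 and 0.678 CPM in CONT and at 1.73, 1.19, 1.98 and 2.23 CPM in INT. It ran from 1.16 to 1.64 CPM in SVX, from 0.720 to 2.29 CPM in SVX_VAS and from 1.29 to 1.95 CPM in VAS. In a fit of all 36300 genes with a count, Mzb1 was called higher in INT (logFC 1.14, SE 0.35, FDR = 0.0211), where 19.5% of those genes were called, and in VAS (logFC 0.93, SE 0.34, FDR = 0.0486), where 25.3% were. It was not called in SVX (logFC 0.77, FDR = 0.111) or SVX_VAS (logFC 0.90, FDR = 0.0629). The call in INT was lost without CONT 1, CONT 4, INT 3 or INT 4 (FDR up to 0.102). The call in VAS was lost under 19 of 27 alternative settings, among them without VAS 2 and VAS 3 (FDR = 0.115), and a call in SVX_VAS was gained under 3 (DESeq2, a filter of 1 CPM and without SVX_VAS 1).

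**Figure D3:**
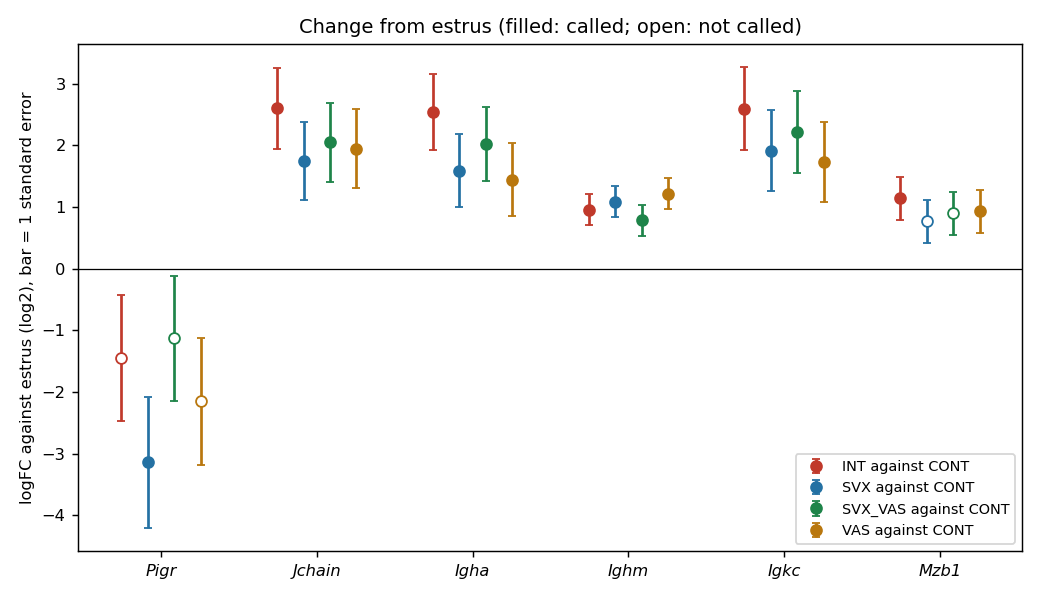
The y axis gives the logFC (log2) of each gene in each mated group against CONT, with bars of 1 standard error, filled symbols for called genes and open symbols for genes not called. Pigr lies below 0 with bars of about the same length in all 4 groups, and the other genes lie above 0.

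The spread within CONT limited these calls. CONT 2 was the highest CONT library for all 6 genes, and without it the logFC in INT was 3.62 for Jchain, 3.50 for Igha and 4.12 for Igkc. Without CONT 1, no gene of the 5 was called in SVX_VAS, Igha, Igkc and Jchain were not called in SVX or VAS, and the same 4 genes as before were called in INT. In that setting 4913 of all 17222 genes were called in INT, 6462 in SVX, 5763 in SVX_VAS and 6160 in VAS. Without CONT 4, Jchain was not called in SVX (FDR = 0.103), SVX_VAS (FDR = 0.0583) or VAS (FDR = 0.0685), and Igha and Igkc were not called in SVX or VAS. Of all 17222 genes, 6939 were then called in SVX, 6345 in SVX_VAS and 6635 in VAS. Mated libraries mattered too: without SVX 1, Jchain (FDR = 0.0587), Igha (FDR = 0.0764) and Igkc (FDR = 0.0544) were not called in SVX, and without SVX 2 Jchain (FDR = 0.0637) and Igha (FDR = 0.0657) were not. Without VAS 4, Igha (FDR = 0.0808) and Igkc (FDR = 0.0576) were not called in VAS, and Igha was not called there without VAS 1 (FDR = 0.0699), VAS 2 (FDR = 0.0673) or any of 4 libraries of the SVX and SVX_VAS groups (FDR = 0.0508 to 0.0529). All 4 antibody genes stayed called in INT under each of 28 alternative settings.

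No gene of the 6 was called different between mated groups. In the 6 comparisons among INT, SVX, SVX_VAS and VAS, edgeR called 0 of the 5 tested genes and 0 of the 17222 genes (0%) with all libraries, and none of the 5 had an unadjusted p below 0.05 in that fit. In edgeR's fit of all 36300 genes with a count, Igha in VAS against INT (unadjusted p = 0.0418, FDR = 0.601) and Pigr in SVX_VAS against SVX (unadjusted p = 0.0463, FDR = 1) did, and neither was called. DESeq2 and limma-voom also called 0 of the 5. The lowest unadjusted p-values were 0.0538 for Igha in VAS against INT (logFC -1.09) and 0.0576 for Pigr in SVX_VAS against SVX (logFC 2.01). No exact permutation p was below 0.114. The intervals were wide for Pigr (SE 0.95 to 0.98) and narrow for Ighm (SE 0.22). Over the 6 comparisons, which have different centres, their outer limits were -3.76 and 4.10 for Pigr and -0.78 and 0.91 for Ighm. No difference in Pigr between mated groups was detected, and smaller differences could be missed at this SE. Ordered by mean log2 CPM, Igha and Igkc ran from INT through SVX_VAS, SVX and VAS to CONT, Jchain from INT through SVX_VAS, VAS and SVX to CONT, and Ighm from VAS through SVX, INT and SVX_VAS to CONT. For these 4 genes only the last step, to CONT, passed the threshold between neighbours. For Pigr the order was CONT, INT, VAS, SVX_VAS and SVX, and no pair of neighbours was called different. The place of VAS in these orders depended on VAS 2 and VAS 3. Without them VAS was above SVX for Igha and Igkc, below SVX and INT for Ighm, and below SVX_VAS for Pigr.

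The antibody genes fell into a tight set and a looser member. Over the 16 mated libraries, Pearson's r of log2 CPM was 0.99 between Igha and Igkc, 0.91 between Jchain and Igha, and 0.89 between Jchain and Igkc. Between Igha and Ighm it was -0.47, and between Ighm and Jchain -0.15. With the CONT libraries included, over all 19, these 2 values were 0.49 and 0.63. Mzb1 had r of 0.50 to 0.56 with Igha, Igkc and Jchain over the 16 mated libraries. Over all 19 libraries the genes most like Jchain were Igha (0.97), Igkc (0.96) and the kappa variable genes Igkv1-117 and Igkv1-110 (0.88 each), followed by Wasf1 (0.85). The genes most like Igkc were Igha (0.98), Jchain (0.96), Wasf1 (0.85), Igkv1-117 (0.84) and Ypel4 (0.84). The genes most like Ighm were Myo1f (0.98) and Ptpn7, Cd53, Myo1g and Arhgap30 (0.97 each). These points share libraries and depth and carry no test.

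The ratio of Igha to Ighm counts within a library does not depend on how the library is scaled. It was 2.38, 5.28 and 2.32 in CONT and 19.3, 5.73, 18.1 and 4.98 in INT. It was 9.55, 6.64, 3.35 and 2.62 in SVX, 3.65, 11.4, 12.1 and 7.58 in SVX_VAS, and 7.25, 3.58, 2.13 and 6.29 in VAS. INT 1 and INT 3 were highest, VAS 3 was lowest, and each mated group overlapped CONT, except that VAS did not without VAS 2 and VAS 3. On the log2 scale INT exceeded CONT by 1.70 (exact permutation p = 0.114, adjusted over 10 pairs p = 0.381). The ratio of Jchain to Igkc was close to 1 in most libraries, from 0.692 to 1.71, and its log2 value differed between INT and CONT by -0.32 (exact permutation p = 0.286, adjusted p = 0.629).

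The ratio of J chain to receptor combines genes already described, and so adds no separate comparison. In SVX_VAS 2 both genes were above their estrous levels and in INT 1 Pigr was within its estrous range, so that there the ratio followed Jchain. Jchain counts per Pigr count were 0.00514, 0.0142 and 0.00621 in CONT. They ran from 0.0813 to 0.862 in INT, from 0.158 to 0.535 in SVX, from 0.0400 to 0.748 in SVX_VAS and from 0.112 to 0.434 in VAS. The mean log2 ratio exceeded that of the same CONT libraries by 5.04 in INT, 5.23 in SVX, 4.57 in SVX_VAS and 4.52 in VAS, each with an exact permutation p of 0.0571, the smallest possible, and 0.143 after adjustment over 10 pairs. Over the 16 mated libraries Pearson's r between log2 CPM of Pigr and Jchain was 0.46, and over all 19 it was -0.19.

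**Figure D4:**
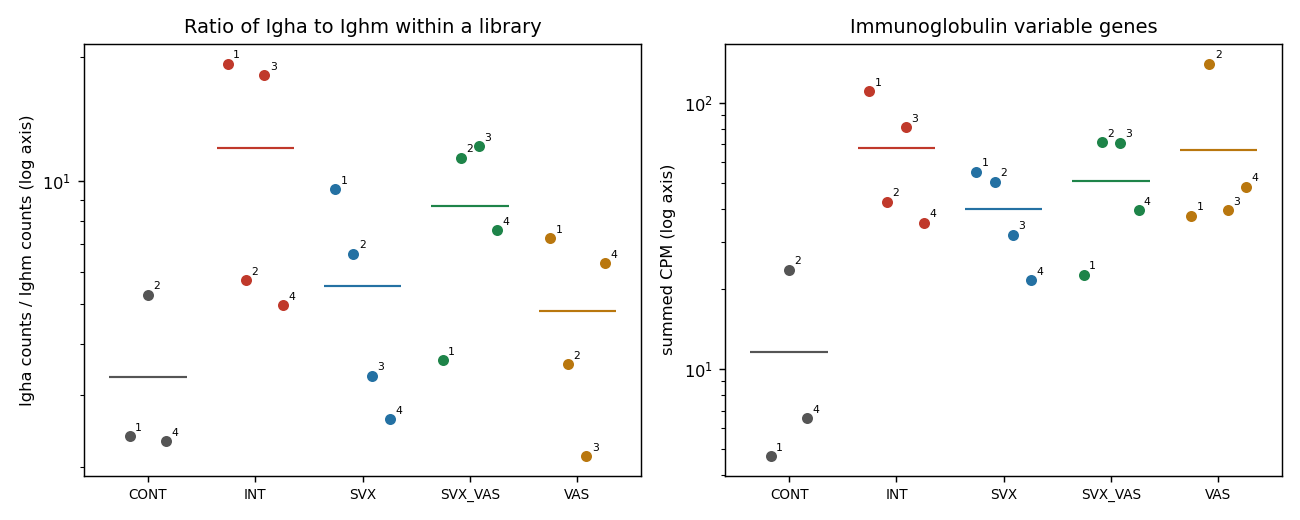
The left panel plots the ratio of Igha to Ighm counts and the right panel the summed CPM of 348 immunoglobulin variable genes (both log axes) by group, each point a library labelled by its replicate number and each line the group mean. INT 1 and INT 3 reach ratios of 19.3 and 18.1, and VAS 2 holds 140 CPM of variable genes.

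Variable genes, which form the antigen-binding end of the antibody, were read at low counts. The 348 genes with symbols starting Ighv, Igkv or Iglv summed to 4.73, 23.6 and 6.55 CPM in CONT 1, 2 and 4 and to 21.6 to 140 CPM in the mated libraries, where VAS 2 was highest. CONT 2 lay above SVX 4 (21.6 CPM) and SVX_VAS 1 (22.6 CPM) and below the other 14 mated libraries. In CONT 1 and CONT 4 no variable gene had 10 counts, and in VAS 2 78 did. The variable gene with most counts took 4.29 to 10.4% of the variable counts of a library, the highest share being that of Ighv1-64 in VAS 3, and Igkv1-117 led in 6 libraries. Variable genes resemble each other, so reads could be divided among or lost between near copies.

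Of 9 other constant genes only Iglc1, the constant region of a lambda light chain, passed the filter. It had 2, 46 and 7 counts in CONT and 4 to 318 counts in the mated libraries, with the highest in VAS 2, and was called higher in VAS (logFC 2.69, FDR = 0.0305; without VAS 2 and VAS 3 logFC 1.42, FDR = 0.206) but not in INT (logFC 2.43, FDR = 0.0546), SVX (logFC 1.26, FDR = 0.289) or SVX_VAS (logFC 1.91, FDR = 0.113). The IgG genes were scarce. Ighg2b had 0, 4 and 0 counts in CONT, 1 to 14 in all mated libraries other than VAS 2, and 43 in VAS 2. Ighg1 had 0 to 2 counts in CONT and at most 30 in any mated library.

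The cells that could make these RNAs were looked for by their markers. Among 12 B cell genes 5 were tested, and 3 of these were called higher in INT, SVX_VAS and VAS and 2 in SVX, with 1 lower in each. Ms4a1 (CD20), a defining surface protein of B cells, had 0 to 5 counts in every library, Pax5 0 to 3 and Cd79a, a chain of the antigen receptor complex, 2 to 22. The summed level of the list was 65.6 to 78.9 CPM in CONT and 137 to 242 CPM across the mated groups, and most of it was Ebf1 (47.3 to 62.6 CPM in CONT, 117 to 224 CPM in the mated groups), a transcription factor that stromal and vascular cells also make. Ebf1 (logFC 1.73, FDR = 6.49e-06), Blk, a B cell kinase (logFC 2.97, FDR = 0.000329), and Cd22, a sialic acid-binding receptor (logFC 1.44, FDR = 0.000959), rose in INT, whereas Cd79b, the partner of Cd79a, fell (logFC -1.76, FDR = 0.0183). Cd79b was called lower in the other mated groups too.

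Among 12 plasma cell genes 9 were tested, of which 1 was called higher in each mated group, while 3 were called lower in INT, 5 in SVX, 4 in SVX_VAS and 4 in VAS (3 without VAS 2 and VAS 3). Prdm1, the regulator of plasma cell differentiation, which other tissues also use, rose in INT (logFC 1.76, FDR = 7.42e-06), while Creld2 (logFC -0.99), Sdf2l1 (logFC -1.10), both endoplasmic reticulum chaperones, and Ell2, an elongation factor that aids antibody secretion (logFC -1.09), fell. Irf4, a transcription factor of plasma cells and other lymphocytes, was also called lower in SVX (logFC -1.17, FDR = 0.00146) and SVX_VAS (logFC -1.27, FDR = 0.000886), Sdc1, the plasma cell surface proteoglycan that epithelia also make, in SVX (logFC -0.90, FDR = 0.0305), and Xbp1, a transcription factor of secretory cells, in VAS (logFC -0.99, FDR = 0.00447; without VAS 2 and VAS 3 logFC -0.49, FDR = 0.0523). Tnfrsf17, the plasma cell survival receptor BCMA, had 0 counts in each CONT library, which allows up to 0.107 to 0.226 CPM at 3 counts. It had 14 counts in VAS 2 and 1 to 5 in every other mated library. Most mated libraries had 1 or 2 counts (0.048 to 0.155 CPM), inside that range or below it. The summed level of the list was 987 to 1030 CPM in CONT and 474 to 945 CPM in the mated groups. Of 7 tested T and NK cell genes, 7 were called higher in INT, SVX and VAS (6 in VAS without VAS 2 and VAS 3) and 6 in SVX_VAS, and 6 endothelial genes of 6 were in all 4 groups. Of 5 red blood cell genes (haemoglobin chains and Alas2, an enzyme of haem synthesis), 4 were called higher in INT (median logFC 1.48), 5 in SVX, 4 in SVX_VAS and 4 in VAS (5 without VAS 2 and VAS 3), and their summed level was 27.1 to 39.0 CPM in CONT and 32.3 to 105 CPM in the mated groups. Among 7 macrophage genes 4 were called higher and 2 lower in INT, among 8 stromal genes 4 higher, among 7 smooth muscle genes 1 higher, among 2 tested neutrophil genes 1 higher, and the 1 tested eosinophil gene was lower. Of 8 tested estrogen-responsive genes, 7 were called lower in SVX (median logFC -5.37), the group in which Pigr was called lower. In INT 1 was called lower (median logFC -1.96), in SVX_VAS 2 (-2.25) and in VAS 3 (-3.60; 0 without VAS 2 and VAS 3), and none was called higher in any group. Pigr relative to the median of the whole estrogen list, on the log2 scale, exceeded CONT by 1.43 in INT and 2.70 in SVX. It exceeded CONT by 2.01 in SVX_VAS and 1.99 in VAS. SVX and SVX_VAS did not overlap CONT (exact permutation p = 0.0571), whereas INT and VAS did (p = 0.114). After adjustment over all pairs of groups each p was 0.229. A list of lymph node stroma and fat (Adipoq, Plin1, Cidec, Ccl21a, Ccl19 and Glycam1) had no gene above the filter, and its summed level was 0.0934 to 3.36 CPM over all libraries. What part any of these cells has in the antibody genes, or the response to estrogen in the level of Pigr, was not tested.

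Signals that support IgA cells were partly higher. Of 5 tested genes of class switching and survival, 4 were called higher in each mated group: Tnfsf13b, the survival factor BAFF (logFC 2.23 in INT, FDR = 3.04e-05), Cd40, the receptor for T cell help (logFC 1.68, FDR = 0.00306), Tgfb1, a switch factor for IgA (logFC 1.21, FDR = 0.000216), and Tnfrsf13b, the BAFF receptor TACI (logFC 0.98, FDR = 0.0119). Tnfsf13, the related factor APRIL, was called lower in SVX (logFC -1.76), SVX_VAS (logFC -1.17) and VAS (logFC -0.97, FDR = 0.0451; without VAS 2 and VAS 3 logFC -1.05, FDR = 0.0879).

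Of 11 tested genes of plasma cell homing, 5 were called higher in INT and none lower. Cxcl12, a chemokine of plasma cell niches, rose most (logFC 2.50, SE 0.27, FDR = 5.41e-06), from 17.2 to 28.6 CPM in CONT to 102 to 165 CPM in INT. Its receptor Cxcr4 (logFC 1.33), the adhesion molecule Vcam1 (logFC 1.69) and the integrin chains Itga4 (logFC 1.97) and Itgb7 (logFC 1.78) rose as well, and all 5 were called higher in the other mated groups. In each of those groups 1 gene of the list was called lower, Ccl28 in SVX and SVX_VAS and the integrin chain Itgb1 in VAS. Itgb1 had a logFC of -0.84 in VAS (FDR = 0.0144) and was not called without VAS 2 and VAS 3 (logFC -0.26). Ccr10, the receptor for Ccl28, was called higher in SVX (logFC 1.67, FDR = 0.0473), where Ccl28 was lower, and in VAS only without VAS 2 and VAS 3 (logFC 1.38, FDR = 0.00465). Madcam1, the gut vessel addressin, had 0 to 6 counts in any library.

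Of 8 tested Fc receptor genes, 4 were called higher in INT, SVX and SVX_VAS and 5 in VAS (4 without VAS 2 and VAS 3), and none was called lower. Fcgrt, the neonatal Fc receptor that carries IgG across epithelia, stood at 23.3 to 40.3 CPM in CONT and at 43.7 to 66.2 CPM in the mated groups (logFC 0.77 in INT, SE 0.16, FDR = 0.000791). Fcgr3 (logFC 1.13) and Fcgr2b (logFC 1.01), which encode IgG receptors, and Fcer1g (logFC 0.78), which encodes the signalling chain of the Fcgr3 receptor, were higher in INT. Fcamr, a receptor for IgA and IgM, ran from 1.54 to 2.43 CPM in CONT and from 0.960 to 4.63 CPM in the mated groups.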

How the data were processed

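RNA from pooled mouse endometrium (19 libraries, 5 groups) was sequenced with a stranded total RNA kit. Per the labels and the study's methods, the authors aligned reads to GRCm38/mm10 with STAR and deposited raw counts per gene from featureCounts. The strand setting of the counting is not given in the sources used here. No deposited column was left without a sample (0 others). The deposited counts were fitted in edgeR 4.0.16 (R 4.3.3) with TMM factors, all 5 groups in 1 quasi-likelihood model without covariates, and Benjamini-Hochberg FDR over the 17222 genes that reached 3 CPM in 3 or more libraries. The SE is the size of the logFC divided by the square root of the quasi-likelihood F, and 95% intervals use the degrees of freedom of the fit. The log2 CPM used a prior count of 2, and ratios had 0.5 added to each count. DESeq2 1.42.0 and limma 3.58.1 (voom), other scalings, filters, a replicate block and leaving out each library were alternatives, and leaving out VAS 2 and VAS 3 together was added after the data were seen. Symbols and coordinates came from GENCODE. The fits were first tested on simulated data. Totals of 12661266 to 31781270 counts put 3 counts at 0.107 to 0.234 CPM. Intervals and floors cover counting error or the spread between pools only.

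The 6 genes and the 21 gene lists were chosen with earlier results of these data known, so counts over lists are descriptions. Named genes were the 6 genes, those in each list with the largest called change or a direct role, the 5 most similar genes for Pigr, Jchain, Igkc and Ighm, and the leading variable genes. Replicate numbers did not pair the samples. No exon of the 6 genes overlapped an exon of another gene.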

Additional observations from a re-analysis of the deposited data

Results flagged for a closer look

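In 12 measures taken over the 4 mated groups (48 groups of 4 libraries), 2 had a library farther from the rest than Dixon's 95% limit, against 2.4 that chance gives. Pigr relative to the epithelial genes was 2.24 on the log2 scale in SVX_VAS 2, with -0.78 to -0.51 in the other SVX_VAS libraries. This was also the library with the highest Pigr level of all 19 (990 CPM). Pigr relative to the estrogen-responsive genes was -0.71 in VAS 1, with 1.29 to 1.40 in the other VAS libraries.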

How the results depend on the processing

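Of 668 recomputed values of the 6 genes against CONT, 601 kept their direction and their side of the threshold, 60 kept the direction but lost the call, 7 gained a call and 0 changed direction. The number of the 5 genes called, leaving out each library in turn, ran from 2 to 5 in SVX (5 with all libraries; lowest without CONT 1, CONT 4 or SVX 1), from 0 to 5 in SVX_VAS (4 with all; 0 without CONT 1) and from 1 to 4 in VAS (4 with all; 1 without CONT 1 or CONT 4, 2 without VAS 4). Of all 17222 genes, 6462 to 7300 were called in SVX, 5763 to 6854 in SVX_VAS and 6160 to 8236 in VAS. Each of these ranges was lowest without CONT 1. With all libraries the counts were 7147, 6636 and 6965. Igha in VAS lost its call under 12 alternatives, among them no filter (FDR = 0.0755) and only the 2 groups compared (FDR = 0.0763). Igkc in VAS lost its call under 5, among them no filter (FDR = 0.0535) and only the 2 groups compared. In SVX, limma-voom did not call Jchain (FDR = 0.0859). Replicate numbers are shared by the groups, but libraries of the same number correlated little (median r 0.05 over 36 pairs, 15 above 0.1) and 4 of 19 correlated best with their own number. A replicate block left the number of the 5 genes called at 4 in INT, 5 in SVX, 4 in SVX_VAS and 4 in VAS. Of all 17222 genes it called 5594, 6911, 6399 and 6769 in these groups. Among the 6 comparisons of mated groups no gene of the 5 was called under any alternative, but the count over all genes depended on tool and library. edgeR called 0 with all libraries, 576 in VAS against INT without VAS 1, and without VAS 4 134 in VAS against INT, 683 in VAS against SVX and 573 in VAS against SVX_VAS. limma-voom called 1661, 1656 and 1804 in these 3 comparisons, and DESeq2 at most 27 in any of the 6. The cause was not tested. Mzb1 had 9 to 42 counts per library, which limits its precision.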
